A study of Mus musculus with 15 samples.

Results

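The genes described here encode the respiratory chain of the mitochondrion and its ATP synthase. Members were the protein-coding genes whose symbols begin with Nduf, Uqcr, Cox4i, Cox5, Cox6, Cox7, Cox8, Sdh or Atp5, together with the 13 protein genes of the mitochondrial genome, whose symbols begin with mt-. This gave 111 genes of the 53337 with a value, 98 of them nuclear and 13 mitochondrial. Of the nuclear genes, 75 encode subunits in broad use, 14 encode assembly factors or related proteins, and 9 are tissue-restricted forms or a second copy. The libraries were made from the dorsal forebrain of C57BL/6J embryos at embryonic day 18, from dams given arginine vasopressin (AVP) or saline by subcutaneous minipump during gestation, so that both treatments share the pump. The males comprised 4 AVP and 4 saline libraries and the females 3 AVP and 4 saline libraries. The study left out another AVP female as an outlier for high variance. A library is named by its treatment, its sex and the number in its title. The labels speak of 16 samples from 8 litters without tying a sample to a litter. Per the study, the samples of a group came from separate litters, so that only a male and a female of the same treatment can share a dam. The interaction below treats them as independent. The AVP infusion, given to the dam, is a model of preeclampsia.

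Values are in TPM, the share of a transcript in its library corrected for its length, and the number of reads behind a value is unknown. Genes that mark cortical plate neurons summed to between 3089 and 4012 TPM per library and those of radial glia to between 1950 and 3215 TPM, as against 70.1 to 199 TPM for genes of the ventral forebrain. Saline male 12, as labelled, stood at 266 TPM for Xist, a transcript of the inactive X chromosome, and 0.49 TPM over Y-linked genes, which are values in the range of the female libraries. Its values are kept under its label. Also given without it are the difference of the male ratio and the male medians of all nuclear subunits and of the mitochondrial genes. So are the male counts at an unadjusted p under 0.05, the fold changes of single genes named for males, and the interaction. All other male values include it, among them the sums and medians by complex, the counts by direction or overlap, the values with copies added, the exact tests and the gene lists. In bulk tissue, fewer cells of a type and less RNA per cell cannot be told apart.

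Complexes I to IV pass electrons from NADH and succinate to oxygen, and complexes I, III and IV pump protons across the inner mitochondrial membrane as they do so. ATP synthase lets the protons return and makes ATP. Complex II is built from nuclear genes alone, whereas the other complexes need proteins from both genomes. The mitochondrial genes are transcribed as long precursors from both strands and then cut apart, and mt-Nd6 is the only protein gene of the light strand. Neurons depend on this pathway as they mature, while proliferating progenitors draw more on glycolysis.

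The transcripts of the mitochondrial genome were among the most abundant of the tissue. By mean TPM over the 15 libraries, 4 of the 10 highest genes of all were members, namely mt-Co3 at 10742 TPM, mt-Co2 at 10388 TPM, mt-Atp6 at 8003 TPM and mt-Co1 at 7353 TPM. The mt-Co genes encode the catalytic core of complex IV, and mt-Atp6 encodes the proton channel of ATP synthase. The cytochrome b gene of complex III, mt-Cytb, followed at 4656 TPM and mt-Atp8 at 4551 TPM. The complex I genes were lower. They ran from 3142 TPM for mt-Nd1 over mt-Nd4 (2118 TPM), mt-Nd4l (2062 TPM), mt-Nd2 (1686 TPM) and mt-Nd3 (1157 TPM) to 566 TPM for mt-Nd5. The light-strand gene mt-Nd6 (chrM:13552-14070, minus strand) had 22.0 TPM. Every other mitochondrial protein gene was above it in each of the 15 libraries.

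Nuclear genes were lower and lay closer together. ATP synthase and complex IV subunits led, with medians of 419 TPM over 16 genes and 520 TPM over 11 genes. The median was 276 TPM for the 8 subunits of complex III, 188 TPM for the 36 of complex I and 112 TPM for the 4 of complex II. Within ATP synthase the highest was Atp5b, the catalytic beta subunit, at 1026 TPM, and the lowest was Atp5g2, one of 3 genes for the same c-ring protein, at 39.1 TPM. Within complex IV, Cox6c was the highest at 794 TPM and Cox7b the lowest at 252 TPM. Complex III ran from the hinge protein Uqcrh at 552 TPM to the Rieske iron-sulfur protein Uqcrfs1 at 123 TPM. In complex I the 7 core subunits, which carry electrons, ran from Ndufv2 at 188 TPM to Ndufs1 at 71.2 TPM, and the 29 supernumerary subunits from Ndufa7 at 283 TPM to Ndufa11 at 25.7 TPM. In complex II the iron-sulfur subunit Sdhb was at 168 TPM and the membrane anchor Sdhc at 81.0 TPM. Assembly factors, which help to build a complex and are not part of it, were lower still. Those of complex I lay between 16.2 TPM for Ndufaf6 and 84.1 TPM for Ndufaf2, and those of complex II between 3.87 TPM for Sdhaf3 and 52.0 TPM for Sdhaf4. Atp5s, named after ATP synthase but with another role, had 13.9 TPM. Cox7a2l, a factor that joins complexes III and IV into supercomplexes, had 330 TPM.

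**Figure D1:**
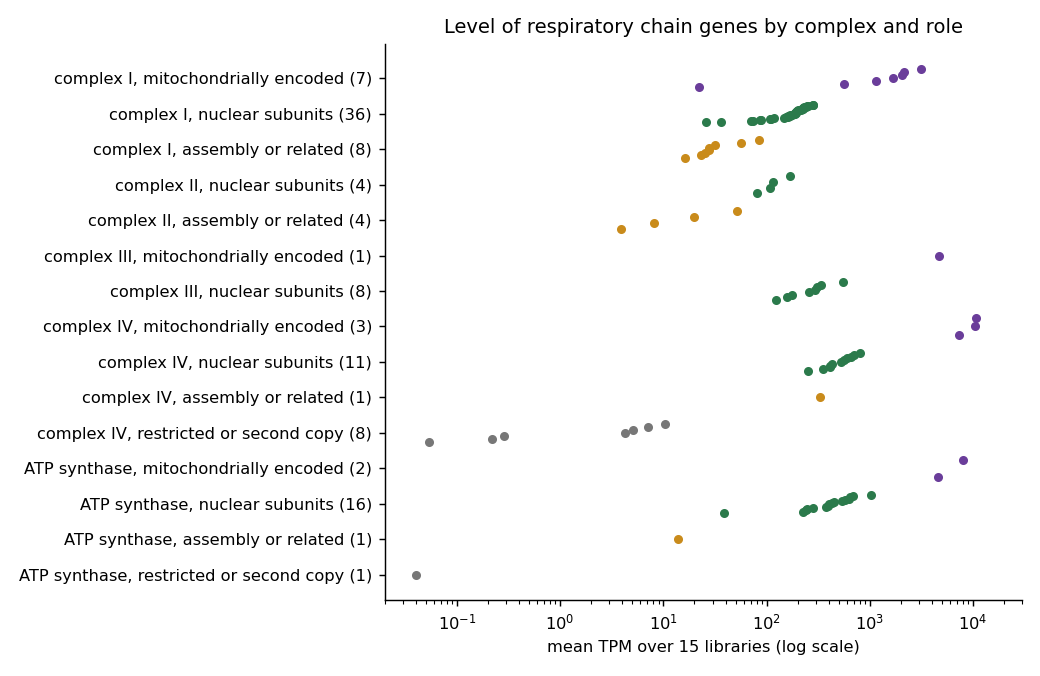
Mean TPM over 15 libraries (log scale) of each member, 1 point per gene, by complex and role. Purple marks mitochondrial genes, green nuclear subunits, yellow assembly factors and related genes, and grey tissue-restricted forms and the second copy. Cox8c, at 0 TPM, is not drawn. The 13 mitochondrial genes lie above the nuclear ones except mt-Nd6 at 22.0 TPM and mt-Nd5 at 566 TPM, and the grey forms end at 10.4 TPM.

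Several complex IV subunits exist in a broad form and in forms tied to muscle, testis, lung or low oxygen. In this tissue the broad form prevailed in every pair. Cox4i1 had 696 TPM and Cox4i2, the lung and low-oxygen form, 5.08 TPM. Cox6a1 had 599 TPM and its heart and muscle form Cox6a2 0.284 TPM. Cox7a2 had 413 TPM and the muscle form Cox7a1 4.21 TPM. Cox6b1 had 520 TPM and the testis form Cox6b2 7.03 TPM. Cox7b had 252 TPM and Cox7b2 0.218 TPM. Cox8a had 431 TPM, whereas Cox8b was listed at 0.0539 TPM and Cox8c at 0 in all libraries. Ndufa4, a complex IV subunit despite its name, had 653 TPM, and Ndufa4l2, which is known from hypoxic cells and pericytes, had 10.4 TPM. A second gene annotated as Atp5o was at 0.0399 TPM beside 406 TPM for the main gene. Genes of striated muscle summed to between 6.01 and 12.7 TPM per library.

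For most members the main transcript was a protein-coding one. This held for 102 of the 106 members with at least 1 TPM, and in 79 of them transcripts of other annotated types held under 10% of the TPM. The exceptions included subunits that matter below. Ndufs4, which stabilises the electron input module of complex I, had 82.9% of its TPM (between 79.7% and 86.1% per library) on transcripts annotated as subject to nonsense-mediated decay or as retaining an intron. Ndufa5 had 72.2% of its TPM outside its coding transcripts, Atp5j 65.1% and Ndufa10 58.5%. Ndufv3 was read mainly as its short coding transcript of 493 nt, at 183 TPM, while the long form of 1582 nt had 8.99 TPM. Kallisto divides reads among overlapping transcripts by estimation, so these shares are less direct than the sum over a gene.

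The mitochondrial values rest on sequence that is held elsewhere too. A copy of part of the mitochondrial genome lies on chromosome 1 at chr1:24612775-24616197 (GRCm38, minus strand). The annotation splits it into the unprocessed pseudogenes Gm28438, Gm28437, Gm10925, Gm28661 and Gm29216, which copy mt-Nd3, mt-Co3, mt-Atp6, mt-Co2 and the 3' part of mt-Co1. Every run of 31 bases in Gm28437, Gm10925 and Gm28661 also occurs in its mitochondrial gene, and 99.0% of those in Gm28438 and 97.2% of those in Gm29216. Gm28438 differs from mt-Nd3 (chrM:9459-9806) at 1 base over the 345 bases of the copy, T3C, counted from 1 at the first base of mt-Nd3. The first 33 bases of both genes, with that base in capitals, show how little there is to tell them apart.
mt-Nd3: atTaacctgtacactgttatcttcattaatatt
Gm28438: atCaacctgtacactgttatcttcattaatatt

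Together these copies were listed with TPM equal to between 11.8% and 38.5% of the mitochondrial sum of a library. The division of the TPM between gene and copy varied widely between libraries. For mt-Co3 (chrM:8607-9390) the copy held 42.3% of the TPM of the pair in AVP male 1 and 37.2% in AVP male 2, but 0.492% in saline female 7. The copy was listed at 5226 and 3853 TPM in AVP males 1 and 2, and at no more than 1942 TPM in any other library. For mt-Nd3 the copy held 75.7% and 76.1% in the same 2 AVP males and 0.332% in saline female 7, in which mt-Nd3 itself was highest at 1920 TPM. The share was steadier for Gm29216, between 39.8% and 50.2% of the TPM of both, and wider for mt-Atp6 (3.20% to 42.5%) and mt-Co2 (0.118% to 25.3%). Copies of this kind are found in the nuclear set as well. The processed pseudogene Gm10175 on chromosome 7 was listed at 304 TPM beside 39.1 TPM for Atp5g2, and Ndufb4c on chromosome 15 at 184 TPM beside 36.4 TPM for Ndufb4. The low rank of these 2 genes among the subunits is therefore uncertain. With the reads of its copy added, on its own length, Atp5g2 had 310 TPM and Ndufb4 132 TPM.

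**Figure D2:**
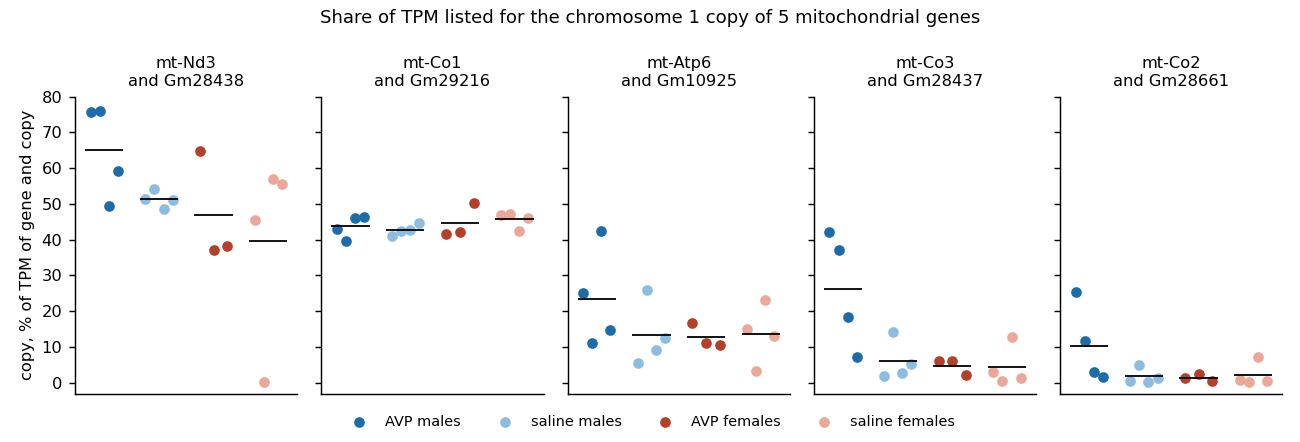
Share of TPM listed for the chromosome 1 copy (percent of the TPM of gene and copy) for 5 mitochondrial genes, 1 point per library, by treatment and sex. Lines are group means. For mt-Co3 the AVP males range from 7.16% to 42.3% and the saline males from 2.02% to 14.1%, while the share for mt-Co1 stays between 39.8% and 50.2% in all 15 libraries.

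Some mitochondrial genes also share bases with each other. The end of mt-Atp8 (chrM:7766-7969) is the start of mt-Atp6 (chrM:7927-8607) in another reading frame, and the 43 shared bases, chrM:7927-7969, are in capitals in the sequence of mt-Atp8.
mt-Atp8: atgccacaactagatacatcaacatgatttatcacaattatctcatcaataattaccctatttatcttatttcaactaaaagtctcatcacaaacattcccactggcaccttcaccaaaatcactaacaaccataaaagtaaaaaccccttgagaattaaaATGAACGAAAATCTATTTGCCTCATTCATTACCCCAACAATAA
In cells both proteins are read from 1 mRNA, yet mt-Atp8 was listed at 4551 TPM and mt-Atp6 at 8003 TPM. The neighbours mt-Nd4l and mt-Nd4, which share 7 bases and also 1 mRNA, were close to each other at 2062 and 2118 TPM.

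Mitochondrial transcripts outweighed nuclear ones in every library, by a factor that varied widely. The 13 mitochondrial genes held between 4.29% and 9.25% of the TPM of a library and the 98 nuclear genes between 2.05% and 2.51%. Their ratio, the sum of mitochondrial TPM over the sum of nuclear TPM, was 1.89, 1.80, 1.98 and 2.23 in AVP males 1, 2, 8 and 9. In saline males 4, 5, 12 and 13 it was 2.07, 2.77, 2.63 and 4.49. In AVP females 3, 10 and 11 it was 2.11, 3.28 and 2.62, and in saline females 6, 7, 14 and 15 it was 2.20, 1.99, 2.33 and 3.58. AVP males 1, 2 and 8 thus lay below all saline males, and AVP male 9 lay above saline male 4. The groups overlapped in both sexes. The group means were 1.97 ± 0.188 (SD, n = 4) in AVP males, 2.99 ± 1.05 (SD, n = 4) in saline males, 2.67 ± 0.587 (SD, n = 3) in AVP females and 2.53 ± 0.718 (SD, n = 4) in saline females.

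The difference between male groups leaned on saline male 13. The mean log2 ratio of AVP males less that of saline males was -0.54, as against an SD between libraries of 0.345. Without saline male 13 the difference was -0.33, and without saline male 12 it was -0.58. With the reads of the pseudogene copies added to the genes they copy, the ratio ran from 2.11 to 2.43 in AVP males and from 2.16 to 4.78 in saline males, and the difference was -0.40. In females the difference was 0.10, within the SD of 0.353. A second number in the labels forms 2 runs, 1 to 8 and 13 to 20, with all 4 groups in both. The median ratio was 2.07 over the 7 libraries of the first run and 2.62 over the 8 of the second. Within the first run the mean ratio was 1.84 in 2 AVP males and 2.42 in 2 saline males, and within the second 2.11 and 3.56. For females it was 2.11 in 1 AVP library and 2.10 in 2 saline libraries of the first run, and 2.95 and 2.96 in the second, with 2 libraries each.

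**Figure D3:**
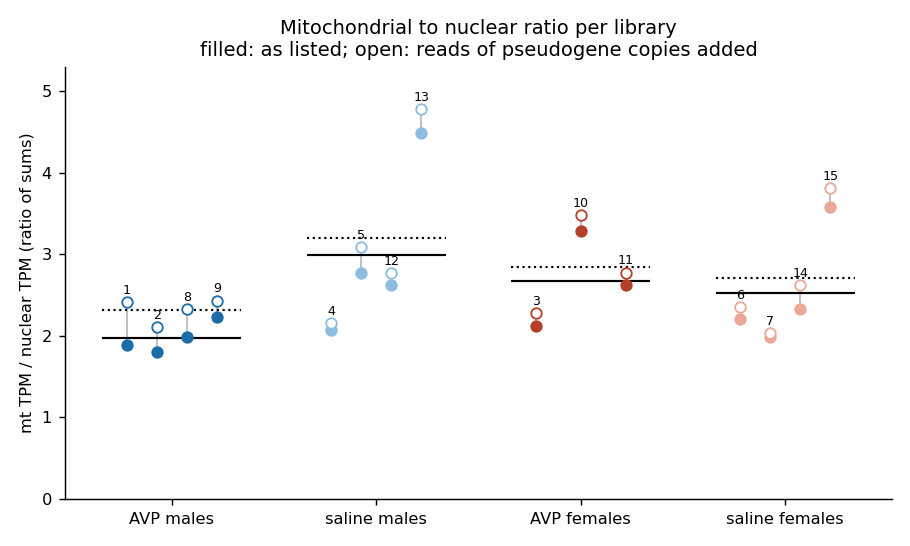
Ratio of mitochondrial to nuclear TPM per library (numbered as in the labels), by group. Filled points are the ratio as listed, open points the ratio with the reads of pseudogene copies added, and solid and dotted lines their group means. AVP males sit between 1.80 and 2.23, saline males between 2.07 and 4.49, and AVP and saline females overlap over most of their range.

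Each complex with genes in both genomes was also taken alone. In males the ratio of the AVP mean to the saline mean of the mitochondrial sum was 0.702 for complex I, 0.791 for complex III, 0.738 for complex IV and 0.616 for ATP synthase. That of the nuclear sum was 1.06, 1.08, 1.06 and 1.06, and 1.02 for complex II. In females the mitochondrial sums stood at 0.991, 1.01, 0.999 and 1.01, and the nuclear sums at 0.956, 0.949, 0.931 and 0.955. All these sums overlapped between the AVP and saline libraries of a sex. Complex II in females was the exception, with a nuclear sum of 445, 475 and 479 TPM in the AVP libraries and 481 to 488 TPM in the saline libraries, a ratio of means of 0.962. Saline male 13 had the highest value of 9 of the 13 mitochondrial genes, and of 12 with copies added, and the lowest complex I and complex III nuclear sums of all libraries, at 5544 and 1984 TPM.

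Nuclear genes varied little between libraries. The coefficient of variation over all 15 libraries had a median of 7.74% for the 75 nuclear subunits and reached at most 16.5%. For the 66 of them with a mean between 100 and 1000 TPM the median was 7.73%, beside 9.29% for all 1434 genes of that range. For the 13 mitochondrial genes as listed it lay between 22.4% and 46.0%. With the reads of its copy added, it went from 22.4% to 14.9% for mt-Co3 and from 35.7% to 16.9% for mt-Nd3. It changed less for mt-Atp6 (30.1% to 26.8%), mt-Co2 (25.4% to 22.8%) and mt-Co1 (23.3% to 23.6%).

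The comparison of AVP with saline within each sex asked whether the maternal infusion was linked to a change in the embryonic dorsal forebrain. No member passed the test in any comparison. With limma on log2(TPM + 0.5) over the genes that reached 1 TPM in 50% or more of a comparison's libraries, 106 of the 111 members were tested. The other 5, Cox6a2, Cox7b2, Cox8b, Cox8c and the second Atp5o gene, were too low. The smallest Benjamini-Hochberg adjusted p among members was 0.304 in males, 0.999 in females and 0.896 in the interaction of treatment and sex. Calls were scarce among all genes too, with 1 of 15271 genes (0.00655%) in males, 0 of 15132 (0%) in females and 0 of 15078 (0%) in the interaction. At an unadjusted p under 0.05, females had 683 genes and the interaction 624. Log2 fold changes on this scale understate the change of genes with low TPM.

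In males the nuclear and the mitochondrial genes lay on opposite sides. Of the 75 nuclear subunits, 63 had a higher mean in AVP males, against 26.4% of all genes tested. Their log2 fold changes lay between -0.19 and 0.23 with a median of 0.07, which was 0.18 above the median of all genes, -0.10. By complex, the median was 0.07 for complex I, 0.04 for complex II, 0.11 for complex III, 0.09 for complex IV and 0.08 for ATP synthase. Of the 13 mitochondrial genes, 12 had a lower mean, with a median of -0.48. Only mt-Nd6 had a higher one (0.52), which is 7.69% of them, beside 26.4% of all genes. Genes of 1 strand share precursors, so they are not separate observations, and saline male 13 had the highest value of 9 of the 13. With the reads of the pseudogene copies added the median of the mitochondrial genes was -0.35, with a difference from all genes of -0.25 in place of -0.38. At an unadjusted p under 0.05, 2 in place of 4 members were then lower, beside 1882 of 15263 genes. An unadjusted p under 0.05 was reached by 9 members with a higher and 4 with a lower mean. These are 8.49% and 3.77% of the members tested, beside 1.11% and 12.4% of all genes. The 9 were Ndufa5, Ndufa6, Ndufb3, Ndufb5 and Ndufc1 of complex I, Uqcrh, Cox7c, Atp5e and Cox7a2l, and the 4 were mt-Co3, mt-Atp6, mt-Atp8 and mt-Nd4. For 5 members all AVP males were above all saline males, and for 1 they were all below, beside 0.733% and 6.54% of all genes.

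These male values moved with the scaling between libraries and with single libraries. Under median-of-ratios scaling the median of all genes moved from -0.10 to 0.00, and 44 members and 1002 of all genes had an unadjusted p under 0.05 with a higher mean. Under quantile normalization the nuclear subunits were 0.07 above all genes, and with the trend on transcript length removed 0.10 above. Per library, the median deviation of the nuclear subunits from their male mean, less that of all genes, was 0.18 in AVP males 1 and 2, -0.00 and -0.02 in AVP males 8 and 9, and between -0.15 and -0.04 in the saline males. Within the first run the difference from all genes was 0.25 and within the second 0.12. Without saline male 12 it was 0.16, and the median of the mitochondrial genes was -0.53. Without saline male 13 the latter was -0.24. The count of 9 higher members at an unadjusted p under 0.05 went to 0 without saline male 13 and likewise without AVP male 2. It went to 4 without saline male 4 and to 6 without saline male 12. All genes higher in these fits were 98 of 15103, 104 of 15107, 129 of 15104 and 156 of 15051. The count was 1 with no variance trend and 3 with TPM rescaled without the mitochondrial genes, beside 128 and 118 of 15271 genes. The count of 4 lower members was 1 without AVP male 1, 13 without saline male 4 and 4 without saline male 12. Beside these stood 1048 of 15169, 1272 of 15104 and 1069 of 15051 genes. The main fit had 169 higher and 1888 lower of 15271 genes, and each of these fits tested 106 members.

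Single genes in males differed by small steps. Uqcrh (chr4:116066965-116075071) had 583, 633, 560 and 561 TPM in AVP males 1, 2, 8 and 9, and 542, 540, 507 and 478 TPM in saline males 4, 5, 12 and 13. Every AVP library was above every saline library. The log2 fold change was 0.18 ± 0.06 (SE), with an adjusted p of 0.320 in limma. The exact permutation test (two-sided) gave 0.0286, which is the lowest value it can reach with 4 libraries a group. Cox7a2l (chr17:83501918-83517330) had 331, 370, 340 and 341 TPM in the AVP males and 319, 321, 297 and 300 TPM in the saline males, in the same order. It is on the list that the study chose for males from these libraries, so its direction is not independent evidence. The groups did not overlap, and the log2 fold change was 0.16 ± 0.06 (SE), with an adjusted p of 0.319. Ndufa6, a supernumerary subunit of complex I, ran from 228 to 271 TPM in AVP males and from 203 to 233 TPM in saline males, which overlapped. Its log2 fold change was 0.20 with an adjusted p of 0.317. Without saline male 12 the log2 fold changes of Uqcrh, Cox7a2l and Ndufa6 were 0.17, 0.14 and 0.20, with an adjusted p of 0.613, 0.614 and 0.612 in limma. In females these 3 genes had log2 fold changes of -0.00, -0.00 and -0.03.

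The smallest p among the male results belonged to mt-Co3. It had 7143, 6519, 8575 and 9880 TPM in AVP males 1, 2, 8 and 9, and 9884, 10653, 11106 and 15033 TPM in saline males 4, 5, 12 and 13. The groups did not overlap, although AVP male 9 and saline male 4 were nearly level, and the log2 fold change was -0.54 ± 0.16 (SE), with an unadjusted limma p of 0.00954 and an adjusted p of 0.304. The copy Gm28437 stood highest in the 2 AVP males in which mt-Co3 was lowest. With the reads of the copy added, mt-Co3 ran from 10367 to 12363 TPM in AVP males and from 10088 to 15874 TPM in saline males. The groups then overlapped, and the log2 fold change was -0.16 with an adjusted p of 0.595. For mt-Atp6 the log2 fold change went from -0.59 to -0.40 in the same way. For mt-Atp8 the log2 fold change, with no copy added, was -0.73 with an adjusted p of 0.321 in limma. Its values ran from 2739 to 3883 TPM in AVP males and from 3455 to 9630 TPM in saline males. Only annotated genes were searched for copies. The bases between Gm10925 and Gm28661, the copies of mt-Atp6 and mt-Co2, were not searched, so a copy of mt-Atp8 there was not tested. Without saline male 12 the log2 fold changes of mt-Co3, mt-Atp6 and mt-Atp8 were -0.56, -0.61 and -0.77, each with an adjusted p of 0.612 in limma.

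In females nearly all nuclear subunits lay slightly lower in the AVP libraries. Of the 75, 7 had a higher mean (9.33%), against 36.9% of all genes tested, and the subunits' median log2 fold change of -0.07 was 0.02 below the median of all genes, -0.05. The median of the mitochondrial genes was 0.01. An unadjusted p under 0.05 was reached by 0 members with a higher mean, beside 2.34% of all genes, and by 2 with a lower mean, Atp5g1 and mt-Nd6, which are 1.89% of the members, beside 2.17%. The groups did not overlap for 4 members that were lower (Atp5b, Atp5g1, Uqcr10 and mt-Nd6) and 0 that were higher, beside 2.77% and 2.78% of all genes. AVP female 10 weighed on these values. Its nuclear subunits lay 0.30 below their female mean relative to all genes, while AVP females 3 and 11 lay 0.06 and 0.17 above. Without it the nuclear subunits were 0.10 above all genes. Marker genes of other cell types moved with the female groups as well. The 8 genes of meningeal fibroblasts summed to between 191 and 274 TPM in AVP females and between 113 and 135 TPM in saline females, and the 8 of endothelium to between 188 and 207 TPM and between 118 and 184 TPM. A higher mean with AVP was found for 8 of 8 meningeal genes and 6 of 8 endothelial genes. Those of red blood cells summed to between 5130 and 13659 TPM and between 2241 and 5707 TPM, which overlapped. The 8 genes of the choroid plexus had means of 1237 TPM with AVP and 256 TPM with saline, with 5 of the 5 tested higher. Of the ventral forebrain genes all 8 tested were lower, with a median log2 fold change of -0.52, and so were all 8 of interneurons, with a median of -0.23, and the sums of these 3 lists overlapped between groups. In males the sums of all these lists overlapped between groups. A higher mean in AVP males was found for 8 of 8 meningeal genes, 5 of 5 red blood cell genes tested and 1 of 8 endothelial genes. For the choroid plexus it was 0 of 2 tested, for the ventral forebrain 5 of 8 and for interneurons 3 of 8, beside 26.4% of all genes. No marker of these lists was at 0 throughout. Their part in these results was not tested.

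Among single genes in females, Atp5g1 (chr11:96068852-96075670), another of the c-ring genes, had 233, 210 and 192 TPM in AVP females 3, 10 and 11, and 263, 258, 233 and 238 TPM in saline females 6, 7, 14 and 15. The groups were apart by less than 1 TPM. The log2 fold change was -0.23 ± 0.09 (SE), with an adjusted p of 0.999 in limma and an exact permutation p of 0.0286. The light-strand gene mt-Nd6 had 10.2, 10.6 and 10.5 TPM in the AVP females and 11.2, 31.4, 27.0 and 25.3 TPM in the saline females. Its log2 fold change was -1.05 ± 0.32 (SE), with an adjusted p of 0.999 and an exact permutation p of 0.0571. Over 20 alternatives its adjusted p in limma ran from 0.0656 to 0.99998. The lowest came without saline female 6, the saline library next to the AVP values. Leaving out that value is bound to widen the gap between the groups, so it adds no support. In males mt-Nd6 ran from 19.7 to 39.2 TPM with AVP and from 6.20 to 28.6 TPM with saline. The other members among the 6 with the smallest p in females were Cox6b2 (log2 fold change 0.49), Ndufb2 (-0.21), Uqcr11 (-0.18) and Ndufs4 (-0.18), each with overlapping groups and an adjusted p of 0.999 in limma.

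**Figure D4:**
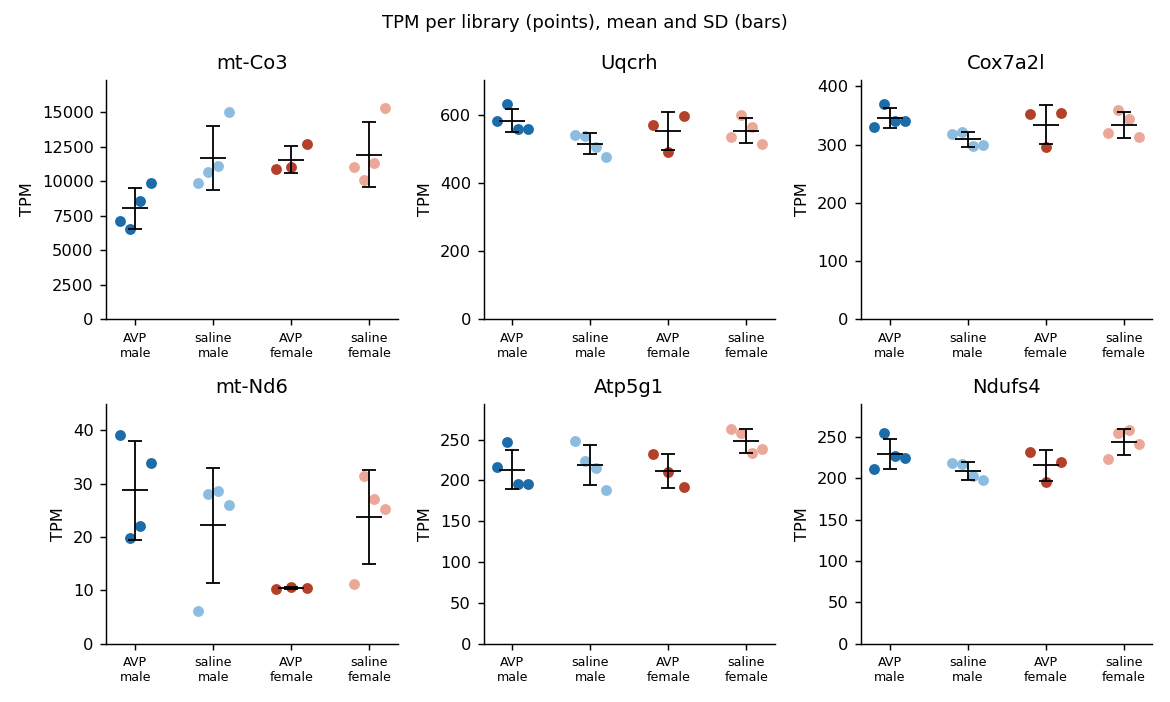
TPM per library for 6 members by group, with the mean and SD as bars, each axis starting at 0. In males mt-Co3 as listed lies lower and Uqcrh and Cox7a2l lie higher with AVP. With the reads of its pseudogene copy added, which is not drawn, mt-Co3 overlaps between the male groups. In females the 3 AVP libraries of mt-Nd6 lie between 10.2 and 10.6 TPM, and Atp5g1 is lower with AVP. None of these differences passed the adjusted test.

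Whether the AVP difference itself differed between the sexes was tested as an interaction. An unadjusted p under 0.05 was reached by 9 members for which the AVP difference was lower in females than in males, 8.49% of those tested, beside 1.62% of all genes. It was reached by 0 members in the other direction, beside 2.52%. The count of 9 was 2 without AVP female 10, beside 388 of 15151 genes. It was 3 without AVP male 2, saline male 13 or saline female 14, beside 133 of 15197, 145 of 15180 and 201 of 15202 genes. Without saline male 12 it was 9, beside 206 of 15164 genes, and without saline female 7 it was 5, beside 226 of 15172. The count was 3 under quantile normalization and 4 with no variance trend, beside 455 and 196 of 15078 genes. Each of these fits tested 106 members, and the main fit had 244 of 15078 genes in this direction. The 6 smallest were those of Ndufs4, Cox5a, mt-Nd6, Ndufc1, Ndufs5 and Ndufa6, with differences of log2 fold changes (females minus males) of -0.31, -0.33, -1.58, -0.34, -0.30 and -0.23 and an adjusted p of 0.896 for each in limma. Cox5a, a nuclear complex IV subunit near its catalytic core, averaged 437 TPM in AVP males and 387 TPM in saline males, but 391 TPM in AVP females and 437 TPM in saline females. Ndufs4 (chr13:114287795-114388258) averaged 230 and 209 TPM in AVP and saline males and 216 and 244 TPM in AVP and saline females. Its protein-coding transcripts were level over the 4 groups, at 38.5, 38.6, 37.7 and 39.0 TPM, and its other transcripts were at 191, 170, 178 and 205 TPM in the same order. The spread behind the gene total thus sat in transcripts not annotated as coding. The median of the nuclear subunits was 0.22 below that of all genes in the interaction, and 0.08 below without AVP female 10. Without saline male 12 the smallest adjusted p of a member was 0.974 in limma.

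Other genes of the pathway were counted over lists chosen for their roles. The shares of all genes beside which these counts stand are 26.4% with a higher mean in AVP males and 36.9% in AVP females, and, at an unadjusted p under 0.05, 1.11% higher and 12.4% lower in males and 2.34% higher and 2.17% lower in females. Of 12 partners of the chain, such as cytochrome c and the ADP/ATP carriers, 9 had a higher mean in AVP males and 4 in AVP females, and none had an unadjusted p under 0.05 in either sex. Their median log2 fold change was 0.06 in males and -0.08 in females. Of 33 tested genes for assembly outside the symbol rule, 2 were higher and 5 lower at an unadjusted p under 0.05 in males and 0 in females, with medians of -0.03 and -0.08. Of 21 tested genes for mitochondrial transcription and RNA processing, the count was 0 in males and 1 (higher) in females, with medians of -0.07 and 0.02. Of 10 tested regulators, such as the factors that drive nuclear respiratory genes, it was 1 (lower) in each sex, with medians of -0.14 and 0.01. Of the 17 genes of glycolysis, it was 1 (lower) in males and 0 in females, with medians of -0.03 and -0.11. No gene of these lists passed an adjusted p of 0.05 in limma.

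The promoters of the nuclear members were searched for motifs of factors known to act on respiratory genes. RefSeq promoters of 300 bases (GRCm38.p6, 250 before to 50 after the start) were matched to 80 of the 98 nuclear members, 63 of them subunits in broad use. The core of the binding site of nuclear respiratory factor 1 (NRF1) occurred on either strand in 16 of the 63 (25.4%), beside 4.78% of all 27025 promoters. The letters CCGGAAG, the core of sites for ETS factors such as the GABP complex, occurred in 15 (23.8%), beside 9.12%, and a core of YY1 sites in 4 (6.35%), beside 0.699%. Each motif was thus missing from most of these promoters. The NRF1 and ETS cores occurred in 4 and 5 of the 13 assembly factors and related genes (30.8% and 38.5%). The letters TATAAA, the core of the TATA box, occurred in 5 of the 63 subunits (7.94%), beside 14.2%. The subunits' promoters were richer in CG pairs, with a median of 20, beside 7 for all promoters. The NRF1, ETS and YY1 cores hold CG pairs themselves, and the promoters compared were not matched for them. Whether these cores are more frequent than the CG pairs alone would give was not tested. None of the 4 tissue-restricted forms with a promoter in the table had the NRF1, ETS or YY1 core. The 250 bases before the start of Cox6a1 (chr5:115348959-115349208, minus strand), one of the more abundant subunits, hold the NRF1 core at 2 places and the ETS core at 1, in capitals. The stretch before Uqcrh (chr4:116075071-116075320, minus strand), the nuclear subunit described above for males, holds the ETS core alone, which reads CTTCCGG where it lies on the other strand.
Cox6a1: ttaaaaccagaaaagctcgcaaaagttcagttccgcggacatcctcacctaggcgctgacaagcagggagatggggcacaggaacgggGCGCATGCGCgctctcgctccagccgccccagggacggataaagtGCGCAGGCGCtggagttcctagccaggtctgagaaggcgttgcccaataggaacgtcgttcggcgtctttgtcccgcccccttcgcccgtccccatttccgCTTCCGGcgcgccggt
Uqcrh: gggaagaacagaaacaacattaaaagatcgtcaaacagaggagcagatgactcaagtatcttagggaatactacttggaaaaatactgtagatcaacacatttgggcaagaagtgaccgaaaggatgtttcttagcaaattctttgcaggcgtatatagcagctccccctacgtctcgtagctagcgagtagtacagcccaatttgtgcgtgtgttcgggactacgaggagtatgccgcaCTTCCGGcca
These are matches of letters and no measure of binding in this tissue.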

How the data were processed

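Stranded poly(A) mRNA libraries of 15 E18 dorsal forebrains were used. Per the study's methods, the authors trimmed reads with Trim Galore 0.4.1 and took transcript levels from Kallisto 0.43.1 with bias correction, on the GENCODE M16 transcripts of GRCm38. The deposited values were read as TPM, since all libraries share 1 total, so depth per library is unknown. Transcript TPM were summed to genes with GENCODE M21, and 404 of 133849 transcripts had no gene there. The members, gene lists and tests were chosen with earlier results of these data known. AVP was compared with saline within each sex with limma 3.58.1 (R 4.3.3), on log2(TPM + 0.5) with a trend of variance on mean for genes with at least 1 TPM in 50% of the libraries, Benjamini-Hochberg adjustment and a threshold of 0.05. Sums and ratios over members were given as values with no test. Named members were also put to an exact permutation test (two-sided). The test was checked on simulated data.

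Named members were the mitochondrial genes, the highest and lowest of each role, the 6 with the smallest p in each comparison, tissue-restricted forms with their partners, and Cox7a2l. Pseudogene copies were genes with at least 50% of their 31-base words in a member. Their reads were added as TPM times length over the member's length, an alternative chosen after seeing the data. The other alternatives were other scalings, filters, pseudocounts and variance models, the run of sample numbers as a covariate, removal of the length trend, a joint fit of the 4 groups, and each library left out in turn. Promoters (motifs searched on both strands) came from RefSeq and figures from matplotlib 3.10.9.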

Additional observations from a re-analysis of the deposited data

Results flagged for a closer look

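Of 201 sets of 4 libraries (a named member or a sum over members within a group), 10 held a library far from the other 3 by Dixon's test, and chance gives about 1 in 20. In AVP males, Cox6c was 584 TPM in library 1 and 873 to 886 TPM in the others, Ndufaf6 was 17.2 TPM in library 1 and 14.2 to 14.6 TPM in the others, and Sdhaf3 was 3.02 TPM in library 8 and 4.37 to 4.52 TPM in the others. In saline males, library 13 had complex I and complex III nuclear sums of 5544 and 1984 TPM, below 6050 to 6120 and 2137 to 2164 TPM. In the same group mt-Nd6 was 6.20 TPM in library 4, below 26.0 to 28.6 TPM, and Sdhc was 88.5 TPM in library 5, above 74.6 to 76.5 TPM. In saline females, library 15 had a complex IV mitochondrial sum of 42194 TPM and 16008 TPM of mt-Co2, above 24873 to 27013 and 9009 to 9288 TPM, and library 6 had 563 TPM of Cox8a, above 414 to 425 TPM. Outside the members, Xist was at 266 TPM in the library labelled saline male 12.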

How the results depend on the processing

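No member passed an adjusted p of 0.05 under any of the 21 alternatives in males, 20 in females and 27 in the interaction. The smallest adjusted p of a member ranged from 0.146 to 0.612, from 0.0656 to 0.99998 and from 0.610 to 0.998. All 407 alternative values of the 18 named results kept their direction. These results were picked for the smallest p in the same data, so a kept direction adds no support. The other threshold, the fit with no variance trend and the joint fit cannot change a log2 fold change. The nuclear subunits were 0.18 above all genes in males, 0.067 under quantile normalization, and 0.14 to 0.22 with 1 library left out. In females the value was -0.02, between -0.11 and 0.10 with 1 library left out. The difference of the log2 ratio lay between -0.70 and -0.33 in males and between -0.06 and 0.28 in females over all alternatives. With the mean of log2(TPM + 0.5) over genes in place of sums it was -0.46 and -0.03. The adjusted p of mt-Co3 in males was between 0.146 and 0.612. No paired analysis was possible because the groups compared share no sample numbers. With TPM alone, the counting error of low members such as mt-Nd6 and Sdhaf3 is unknown.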

Other observations

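The 2 ribosomal RNAs of the mitochondrial genome, which are mostly removed by poly(A) selection, were listed at 280 to 592 TPM (mt-Rnr1) and 241 to 480 TPM (mt-Rnr2). Saline male 13 and saline female 15, which had the highest ratios of mitochondrial to nuclear TPM, also had the highest values of both, 592 and 590 TPM of mt-Rnr1 and 458 and 480 TPM of mt-Rnr2. Genes of the choroid plexus summed to between 7.29 and 2291 TPM per library and those of red blood cells to between 2241 and 13659 TPM. Their part in the values of the members was not tested.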
